A study of Homo sapiens with 6 samples.

Results

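The genes described are vimentin (VIM), the cadherins CDH1, CDH2 and CDH3, fibronectin (FN1), the transcription factors ZEB1, ZEB2, SNAI2 and TWIST1, and the splicing factor ESRP1. They were taken by gene name from the deposited expression values, 10 of the 50868 genes with values, and all 10 were found. RNA of UM-UC-3 and of 5637, both established lines from human bladder cancer, was sequenced to ask which genes change when the long noncoding RNA LNMAT1 is silenced. In each line 1 library was made with a negative control hairpin (sh-NC) and 1 with each of 2 silencing hairpins, sh-LNMAT1#1 or sh-LNMAT1#2, which gives 6 libraries. All cells, the controls included, were infected with lentivirus and selected with puromycin for 2 weeks to stable expression, and whether a line was 1 clone or a mixed population is not stated. The lines were grown in different media, both with fetal bovine serum, so line and medium cannot be told apart. Each construct had 1 library per line, so a difference between a pair of libraries has no replicate check.

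Epithelial cells are held together by cadherins, transmembrane proteins that bind the same cadherin on the next cell and are anchored to actin through catenins. In the epithelial-mesenchymal transition (EMT), cells lose E-cadherin and cell contacts and gain N-cadherin, vimentin filaments and fibronectin matrix, in part under ZEB, Snail and Twist transcription factors, which bind E-box sequences in promoters. ESRP1 directs the splicing pattern of epithelial cells, and partial states that mix both programmes are well known in carcinoma lines.

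The silenced gene is listed as LINC01296 and was lower with both hairpins in each line under the labels. In UM-UC-3 its level in FPKM (fragments scaled to gene length and library depth) was 14.2 with sh-NC, 6.20 with sh-LNMAT1#1 and 6.70 with sh-LNMAT1#2. In the other line, the library labelled 5637 sh-NC had 11.7 FPKM, against 4.70 in 5637 sh-LNMAT1#1 and 2.14 in 5637 sh-LNMAT1#2. The libraries held between 19375000 and 24707000 fragments, read from single-exon genes, so depth differed little. The library labelled 5637 sh-NC stood apart from the other libraries of its line, and it is named by its label throughout. Across 12717 genes, Pearson r of its log2(FPKM + 0.5) was 0.922 to 0.985 with the UM-UC-3 libraries and 0.617 to 0.622 with the 5637 sh-LNMAT1 libraries, and genes are not independent replicates. For 10 of the 10 genes described its level was nearest to that of a UM-UC-3 library, and for 7 it lay within the range of the 3 UM-UC-3 libraries. The exceptions were VIM and TWIST1, which lay just under that range, and ESRP1, which lay just over it. For 10 of 10 genes the ranges of the 3 UM-UC-3 libraries and of the 5637 sh-LNMAT1 pair did not overlap, 6 with the 5637 pair above and 4 below. Over the 12748 genes whose mean in these libraries reached 1 FPKM, 32.2% lay above and 33.8% below in this way, so a lack of overlap by itself sets few genes apart. Comparisons with this library are therefore given beside ones that leave it out, where these can be made, and whether its label or the cells changed was not tested.

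Among markers of epithelial cells, KRT8 and KRT18 reached 1 FPKM in both lines, and KRT7, KRT19 and EPCAM only in the 5637 sh-LNMAT1 libraries. In UM-UC-3, KRT7 was 0.736 to 0.895 FPKM and KRT19 0.0629 to 0.113 FPKM. The summed level of KRT7, KRT8, KRT18, KRT19 and EPCAM was 21.2 to 30.8 FPKM in the UM-UC-3 libraries, most of it KRT18, and 600 to 776 FPKM in the 5637 sh-LNMAT1 libraries. EPCAM, which defines most epithelial cells, was at most 0.0210 FPKM in UM-UC-3, and the library labelled 5637 sh-NC had 0.0104 FPKM. It was 33.8 and 35.6 FPKM in the 5637 sh-LNMAT1 libraries. The basal urothelial keratins with TP63 summed to 0.210 to 0.395 FPKM in UM-UC-3 and 171 to 313 FPKM in 5637 sh-LNMAT1. Among them KRT14 stayed low, at 0.198 and 0.230 FPKM in 5637 sh-LNMAT1. The 7 luminal urothelial markers summed to 1.35 to 4.81 FPKM in UM-UC-3 and 22.5 to 23.0 FPKM in 5637 sh-LNMAT1. In the latter almost all of it was PPARG, at 16.6 and 16.8 FPKM, and GATA3, at 5.99 and 5.02 FPKM. The other 5 stayed under 1 FPKM in every library, and UPK1B was listed at 0 in all 6 libraries. UPK1A went the other way, at 0.338 to 0.410 FPKM in UM-UC-3 and 0 and 0.0485 FPKM in 5637 sh-LNMAT1. Of 5 leukocyte markers, PTPRC and CD3E were at or near 0 in every library, and the list's sum of 13.0 to 29.4 FPKM in UM-UC-3 was almost all CD68. Of 4 endothelial markers, 4 stayed under 1 FPKM everywhere. Of 6 fibroblast markers, 5 stayed under 1 FPKM in every library, and COL1A1 reached 6.37 to 7.92 FPKM in 5637 sh-LNMAT1 only. In bulk RNA, fewer cells of a type and less RNA per cell cannot be told apart.

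VIM, the intermediate filament protein of mesenchymal cells, was among the most abundant messages of UM-UC-3 and was lower with both hairpins there. In UM-UC-3, VIM was 332 FPKM with sh-NC, 116 with sh-LNMAT1#1 and 155 with sh-LNMAT1#2, that is 34.9% and 46.7% of the control. Ranked from the highest gene down, VIM went from position 51 to positions 214 and 134. The library labelled 5637 sh-NC had 103 FPKM, at position 242. In 5637 it was 3.85 FPKM with sh-LNMAT1#1 and 4.14 with sh-LNMAT1#2, at positions 7399 and 6987. The control was the highest of the UM-UC-3 libraries, and all 4 libraries near 100 FPKM or above were far over the pair of 5637 sh-LNMAT1 libraries, with no overlap.

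VIM (ENSG00000026025) lies on the plus strand of chromosome 10 from 17228259 to 17237593 on GRCh38. Antisense genes on the minus strand, VIM-AS1 and RP11-124N14.3, overlap it, and since the strand setting of the counting is not given, their reads and those of VIM cannot be told apart with certainty. In UM-UC-3, VIM-AS1 was 8.20 FPKM with sh-NC, 6.19 with sh-LNMAT1#1 and 1.45 with sh-LNMAT1#2. Its level was 5.63 FPKM in the library with the label 5637 sh-NC, and 5637 sh-LNMAT1#1 and #2 had 0.0667 and 0.143. RP11-124N14.3 reached at most 5.10 FPKM, and both lay well under VIM in every library. Of the 10 genes, 5 (VIM, CDH2, FN1, ZEB1 and ZEB2) have entries in the RefSeq promoter table for GRCh38.p14, with 12 windows from 250 bases before to 50 bases after a start. The windows were searched on both strands for the 6-letter E-box CAGGTG, whose reverse complement is CACCTG, because ZEB and Snail factors bind this form of the box. Of the 12 windows, 2 held it, both at starts of ZEB1, against 20.6% of all 35116 promoter windows of the same length. Most of the 12 windows are at starts of ZEB1, so this by itself does not set ZEB1 apart. The windows of VIM and FN1, the genes of this group with the highest levels in UM-UC-3 and 5637, and the ZEB1 window with most boxes are shown 5′ to 3′ on the gene's strand, with the E-box in capitals. They span chr10:17227991-17228290 (plus), chr2:215436019-215436318 (minus) and chr10:31318966-31319265 (plus).
VIM: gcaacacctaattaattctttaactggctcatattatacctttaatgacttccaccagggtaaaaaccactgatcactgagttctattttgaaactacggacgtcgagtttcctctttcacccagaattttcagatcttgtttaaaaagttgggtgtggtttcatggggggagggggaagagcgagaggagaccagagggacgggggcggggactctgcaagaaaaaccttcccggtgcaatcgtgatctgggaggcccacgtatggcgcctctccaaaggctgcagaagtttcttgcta
FN1: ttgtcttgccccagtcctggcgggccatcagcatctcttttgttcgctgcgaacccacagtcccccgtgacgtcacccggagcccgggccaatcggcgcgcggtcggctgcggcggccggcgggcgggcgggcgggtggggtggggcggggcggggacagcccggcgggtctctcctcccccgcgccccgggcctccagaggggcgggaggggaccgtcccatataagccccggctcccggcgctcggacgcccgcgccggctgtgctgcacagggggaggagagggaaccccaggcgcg
ZEB1: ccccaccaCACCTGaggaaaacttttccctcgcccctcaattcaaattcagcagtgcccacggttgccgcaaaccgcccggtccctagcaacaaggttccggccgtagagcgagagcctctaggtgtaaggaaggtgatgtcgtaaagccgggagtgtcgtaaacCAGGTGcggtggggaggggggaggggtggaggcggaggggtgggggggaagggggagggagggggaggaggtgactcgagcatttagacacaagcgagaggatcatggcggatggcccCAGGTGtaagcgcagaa
The boxes in the ZEB1 window begin 242 and 85 bases before the start and 33 bases after it. The VIM window has 10 CG pairs and the FN1 window 38, against a median of 14 over all windows. No box in a window says only that these letters are not in it, and a match is a description of sequence, not of binding.

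**Figure D1:**
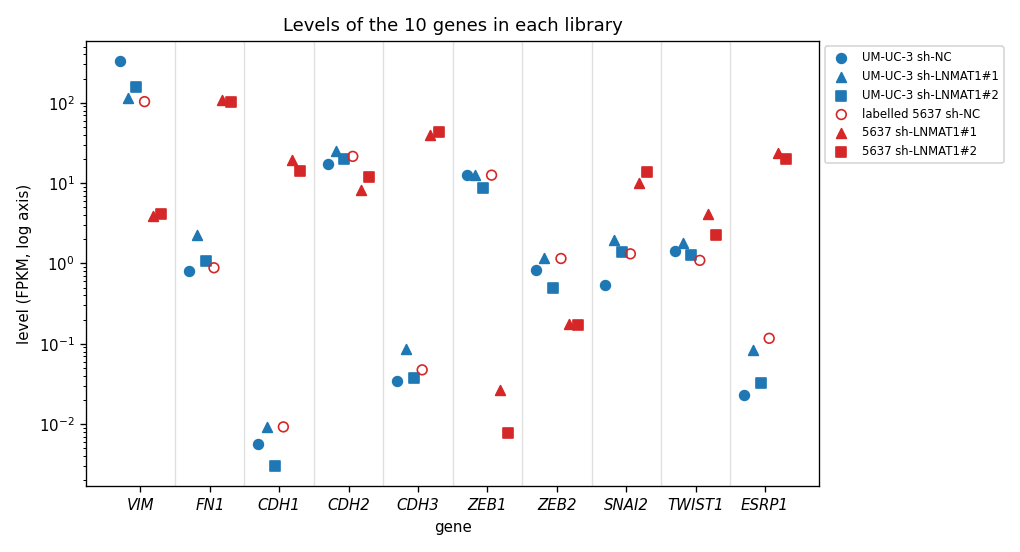
Level of each gene in FPKM (log axis) in the 6 libraries. Blue marks UM-UC-3 and red 5637, circles are sh-NC, triangles sh-LNMAT1#1 and squares sh-LNMAT1#2, and the open circle is the library labelled 5637 sh-NC. It sits with the blue points for all 10 genes, while the filled red points lie apart from them, above for 6 genes and below for 4.

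In UM-UC-3 the sum of CDH1, CDH2 and CDH3 was almost all CDH2, and in 5637 with either LNMAT1 hairpin the largest share was CDH3, with CDH1 next. In UM-UC-3, CDH1, E-cadherin of epithelial junctions, was 0.00560 FPKM with sh-NC, 0.00931 with sh-LNMAT1#1 and 0.00301 with sh-LNMAT1#2, and the library labelled 5637 sh-NC had 0.00924 FPKM. These values are whole multiples of a common step, at 2, 3, 1 and 3 steps within 0.05 of a step. Bounded by the shortest coding transcript and by the gene's whole exon length, they correspond to 0.143 to 1.28 fragments. The value at 1 step would then be 0.143 to 0.427 fragments, so the true counts may lie above these bounds. At so few steps no order can be read among these values. CDH1 was 19.2 FPKM in 5637 sh-LNMAT1#1 and 14.1 FPKM in 5637 sh-LNMAT1#2. It was thus clearly measured in those libraries alone, and near the detection limit in the other 4.

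CDH3, P-cadherin of basal epithelial layers, followed the same split. In UM-UC-3, CDH3 was 0.0344 FPKM with sh-NC, 0.0859 with sh-LNMAT1#1 and 0.0371 with sh-LNMAT1#2, and the library labelled 5637 sh-NC had 0.0474 FPKM, or 4, 9, 4 and 5 steps. CDH3 was 39.5 FPKM in 5637 sh-LNMAT1#1 and 43.0 FPKM in 5637 sh-LNMAT1#2, above CDH1 in both. CDH3 (ENSG00000062038, plus strand, from 68636189 to 68722616) and CDH1 (ENSG00000039068, plus strand, from 68737225 to 68835548) are neighbours on chromosome 16, with 14608 bases between them. Beyond the pair, ZFP90 upstream was 0.842 to 1.45 FPKM in UM-UC-3 and 1.04 to 1.08 FPKM in 5637 sh-LNMAT1. TANGO6 downstream was 3.43 to 4.22 FPKM and 2.35 to 2.50 FPKM in the same order. These flanking genes, looked at after the values of the cadherins were seen, did not share the split of the cadherins. HAS3, the hyaluronan synthase gene beyond TANGO6, was 0.240 to 0.334 FPKM in UM-UC-3 and 6.77 and 5.67 FPKM in 5637 sh-LNMAT1.

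CDH2, N-cadherin (ENSG00000170558, minus strand of chromosome 18 from 27950966 to 28177446), was measured in both lines. In UM-UC-3, CDH2 was 17.5 FPKM with sh-NC, 24.8 with sh-LNMAT1#1 and 19.9 with sh-LNMAT1#2, and the library labelled 5637 sh-NC had 21.5 FPKM. It was 8.18 FPKM in 5637 sh-LNMAT1#1 and 11.9 FPKM in 5637 sh-LNMAT1#2. The 5637 sh-LNMAT1 libraries were lower, without overlap, but CDH2 there was still within the order of magnitude of CDH1. Its share of the sum of the 3 cadherins was 99.6% to 99.8% in UM-UC-3, and the library labelled 5637 sh-NC had 99.7%. In 5637 sh-LNMAT1#1 the shares were 28.7% for CDH1, 12.2% for CDH2 and 59.0% for CDH3, of a sum of 66.9 FPKM. In 5637 sh-LNMAT1#2 they were 20.5%, 17.2% and 62.3% of 69.0 FPKM. The summed cadherin level in UM-UC-3 was lower, at 17.5 to 24.9 FPKM.

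**Figure D2:**
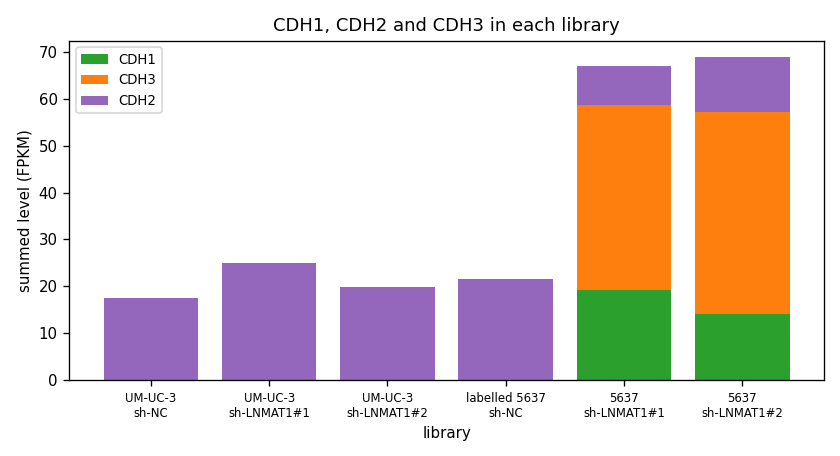
Stacked bars of CDH1 (green), CDH3 (orange) and CDH2 (purple) in FPKM in each library, from 0. The UM-UC-3 bars and that of the library labelled 5637 sh-NC are almost wholly CDH2, and the 5637 sh-LNMAT1 bars of 66.9 and 69.0 FPKM hold all 3 genes.

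FN1 encodes the matrix protein fibronectin and is counted among mesenchymal genes in EMT. It was high in the 5637 sh-LNMAT1 libraries, where CDH1 was clearly measured, and low in the libraries with high VIM. In UM-UC-3, FN1 was 0.816 FPKM with sh-NC, 2.27 with sh-LNMAT1#1 and 1.07 with sh-LNMAT1#2, and the library labelled 5637 sh-NC had 0.884 FPKM. It was 109.6 FPKM in 5637 sh-LNMAT1#1 and 102 FPKM in 5637 sh-LNMAT1#2. The groups did not overlap, and within UM-UC-3 the sh-LNMAT1#1 library was the highest. FN1 (ENSG00000115414) lies on the minus strand of chromosome 2 from 215360440 to 215436172, and no other listed gene overlaps it.

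ZEB1, a repressor of epithelial genes that include CDH1, was high where CDH1 was near its detection limit. In UM-UC-3, ZEB1 was 12.5 FPKM with sh-NC, 12.7 with sh-LNMAT1#1 and 8.67 with sh-LNMAT1#2, and the library labelled 5637 sh-NC had 12.6 FPKM. It was 0.0264 FPKM in 5637 sh-LNMAT1#1 and 0.00774 FPKM in 5637 sh-LNMAT1#2. With the same bounds, the last value rests on 0.482 to 1.30 fragments and the one before on 1.77 to 4.76, at about the floor of 3 fragments. Such bounds cover counting error only. ZEB1 (ENSG00000148516) lies on the plus strand of chromosome 10 from 31318495 to 31529814. In the same order the antisense gene ZEB1-AS1 was 1.72, 4.29 and 4.09 FPKM in UM-UC-3, the library labelled 5637 sh-NC had 4.43 FPKM, and 5637 sh-LNMAT1#1 and #2 had 0.157 and 0.289. Like ZEB1 it was low in the pair of 5637 sh-LNMAT1 libraries. SPTLC1P1, which overlaps ZEB1 on the plus strand, did not share this split. It was 5.68 to 10.7 FPKM in UM-UC-3, 10.6 in the library labelled 5637 sh-NC, and 13.4 and 5.93 in the 5637 sh-LNMAT1 pair.

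ZEB2 (ENSG00000169554, minus strand of chromosome 2 from 144384081 to 144524583), the paralogue of ZEB1, was low everywhere. In UM-UC-3, ZEB2 was 0.830 FPKM with sh-NC, 1.16 with sh-LNMAT1#1 and 0.502 with sh-LNMAT1#2. Under the 5637 labels, the sh-NC library had 1.15 FPKM and those with sh-LNMAT1#1 and #2 had 0.174 and 0.169. Its ranges did not overlap between the lines, but its mean was under the limit of 1 FPKM used for the tests in the line comparison.

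SNAI2 (ENSG00000019549, minus strand of chromosome 8 from 48917690 to 48921740) and TWIST1 (ENSG00000122691) did not follow ZEB1. In UM-UC-3, SNAI2, the Slug repressor of the Snail family, was 0.539 FPKM with sh-NC, 1.98 with sh-LNMAT1#1 and 1.40 with sh-LNMAT1#2, and the library labelled 5637 sh-NC had 1.32 FPKM. It was 10.1 FPKM in 5637 sh-LNMAT1#1 and 13.8 FPKM in 5637 sh-LNMAT1#2, above every other library. The UM-UC-3 control was the lowest of the 6. In UM-UC-3, TWIST1, a basic helix-loop-helix factor, was 1.44 FPKM with sh-NC, 1.81 with sh-LNMAT1#1 and 1.29 with sh-LNMAT1#2. Under the 5637 labels, the sh-NC library had 1.09 FPKM and those with sh-LNMAT1#1 and #2 had 4.17 and 2.26. The lines did not overlap for TWIST1, though the gap between the 5637 hairpins, 1.84-fold, was wider than the range within UM-UC-3, 1.40-fold. TWIST1 is listed on the minus strand of chromosome 7 from 19020991 to 19117672, a span of 96682 bases.

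ESRP1 (ENSG00000104413, plus strand of chromosome 8 from 94641074 to 94707466), the epithelial splicing regulator, showed the split of CDH1 and CDH3. In UM-UC-3, ESRP1 was 0.0228 FPKM with sh-NC, 0.0842 with sh-LNMAT1#1 and 0.0327 with sh-LNMAT1#2, and the library labelled 5637 sh-NC had 0.117 FPKM, or 3, 10, 4 and 14 steps. It was 24.0 FPKM in 5637 sh-LNMAT1#1 and 19.8 FPKM in 5637 sh-LNMAT1#2. Only those libraries held more than a trace.

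The first comparison asked how the genes changed with the hairpins in UM-UC-3. Of the 6 genes that passed a mean of 1 FPKM over these libraries (VIM, CDH2, FN1, ZEB1, SNAI2 and TWIST1), 1 was at least 2-fold lower with both hairpins, VIM, and 0 were at least 2-fold higher. Over the 12025 genes kept, 0.358% were lower and 1.08% higher by this rule, which is a rule of size and not a test. Changes are differences of log2(FPKM + 0.5), a scale that understates the change of low genes. VIM changed by -1.52 with sh-LNMAT1#1 and -1.10 with sh-LNMAT1#2. SNAI2 differed by 1.26 and 0.87, past 2-fold with sh-LNMAT1#1 alone on this scale, while its FPKM ratios were 3.68-fold and 2.61-fold. FN1 differed by 1.07 with sh-LNMAT1#1 and by 0.26 with sh-LNMAT1#2. CDH2 differed by 0.49 and 0.18, ZEB1 by 0.02 and -0.50, and TWIST1 by 0.25 and -0.11, all within 2-fold. Both comparisons share the sh-NC library, so a departure of that library alone would move both. The reference gene GAPDH differed by -0.51 and -0.14, and ACTB by 0.18 and 0.70.

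The same rule in 5637, against the library labelled 5637 sh-NC, gave a pattern of another size. Of the 9 genes kept, 5 were at least 2-fold higher with both hairpins (CDH1, CDH3, FN1, SNAI2 and ESRP1) and 2 at least 2-fold lower (VIM and ZEB1). The filter kept CDH1, CDH3, ESRP1 and FN1 (0.884 FPKM in the control) through the sh-LNMAT1 pair alone, and ZEB1 through the control alone. Such genes could be counted only because they differ, so their place in these counts is no independent result. Over all 12791 genes, 18.5% were higher and 12.3% lower. VIM differed by -4.58 and -4.48, ZEB1 by -4.63 and -4.68, CDH1 by 5.28 and 4.85, CDH3 by 6.19 and 6.31, FN1 by 6.31 and 6.22, and ESRP1 by 5.31 and 5.04. SNAI2 differed by 2.54 and 2.97. CDH2, at -1.34 and -0.83, and TWIST1, at 1.55 and 0.80, passed 2-fold with sh-LNMAT1#1 alone. ACTB, a reference gene, differed by 1.80 and 1.46 in the same comparison. With the control labelled 5637 sh-NC so near to UM-UC-3, a difference between silenced and control cells and one between the lines cannot be told apart here.

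**Figure D3:**
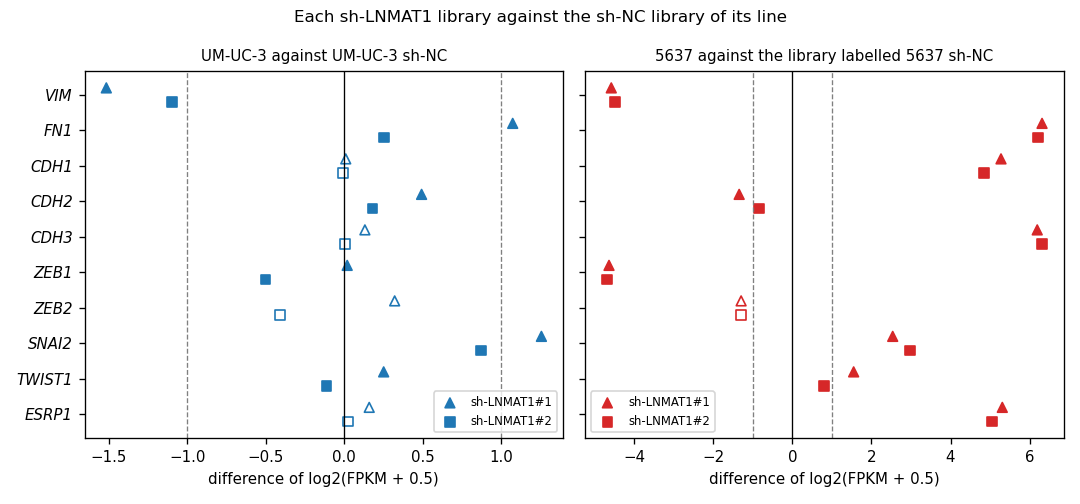
Difference of log2(FPKM + 0.5) of each sh-LNMAT1 library from the sh-NC library of its line, UM-UC-3 on the left and 5637 on the right, with different horizontal scales. Triangles are sh-LNMAT1#1, squares sh-LNMAT1#2, open symbols are genes under a mean of 1 FPKM, and dashed lines mark 2-fold. In UM-UC-3 only VIM lies past 2-fold with both hairpins, at -1.52 and -1.10.

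Leaving out both sh-NC libraries, the lines were compared under the same hairpins, 2 sh-LNMAT1 libraries against 2, with limma. The hairpins stand in for replicates, so the p-values measure only the spread between these libraries. Of the 9 genes tested, 8 passed an adjusted p of 0.05, 5 higher in 5637 and 3 lower. Of these, CDH1, CDH3 and ESRP1 reached a mean of 1 FPKM in 5637 alone and ZEB1 in UM-UC-3 alone, so they could be tested only because they differ. Of the 5 that reached it in both lines, FN1 and SNAI2 were higher, VIM and CDH2 lower, and TWIST1 was not called. Over the 12844 genes tested, 20.1% were higher and 18.4% lower, with a median difference of -0.02. CDH3 was higher in 5637 by 6.22 on the log2 scale (SE 0.20, limma adjusted p 0.000154), FN1 by 5.67 (SE 0.31), ESRP1 by 5.32 (SE 0.21) and CDH1 by 5.07 (SE 0.24). SNAI2 was higher by 2.50 (SE 0.26, limma adjusted p 0.00165). VIM differed by -4.90 (SE 0.22, limma adjusted p 0.00019) and ZEB1 by -4.41 (SE 0.25, limma adjusted p 0.000287). In FPKM, the mean of VIM was 135 for the UM-UC-3 pair of libraries and 4.00 for the 5637 pair, 33.9-fold apart. CDH2 had the smallest called difference, -1.13 (SE 0.26, limma adjusted p 0.0218), and the call was lost when either 5637 library or the UM-UC-3 sh-LNMAT1#1 library was left out, at differences of -1.39 to -0.88. SNAI2 was not called without 5637 sh-LNMAT1#2, at a difference of 2.28 (limma adjusted p 0.0584). TWIST1, higher by 0.82 (SE 0.32, limma adjusted p 0.0983), did not pass. Among genes usually grouped as mesenchymal that reached 1 FPKM in both lines, VIM and CDH2 were lower in 5637 and FN1 and SNAI2 higher. Their direction was thus not shared, though the calls of CDH2 and SNAI2 depended on single libraries. The markers moved with these differences: KRT8 and KRT18, at 1 FPKM or more in both lines, were higher in 5637 by 3.42 and 1.29, and PPARG by 2.78. Of the 5 basal urothelial markers, 4 reached 1 FPKM in 5637 alone, as did COL1A1, and KRT14 reached it in neither line. CD68 reached it in UM-UC-3 alone. Their part in the differences of the genes described was not tested.

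**Figure D4:**
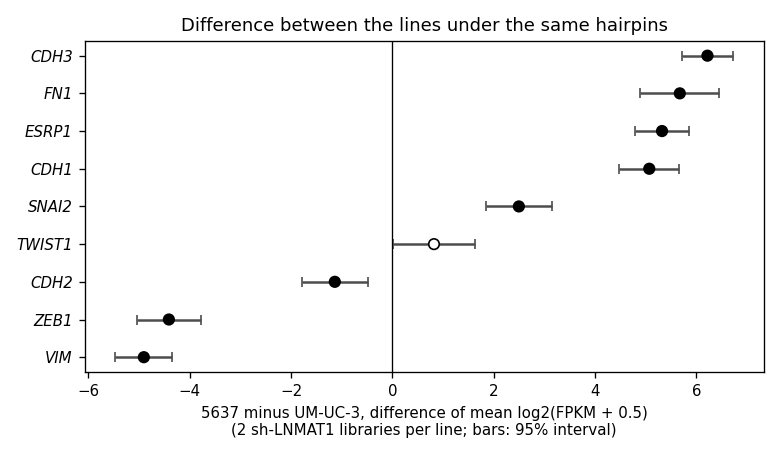
Difference between the lines, 5637 minus UM-UC-3, of the mean log2(FPKM + 0.5) of the sh-LNMAT1#1 and #2 libraries, with the 95% interval from limma. Filled points passed an adjusted p of 0.05 and the open point, TWIST1, did not. The values run from -4.90 for VIM to 6.22 for CDH3.

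With both sh-NC libraries added under their labels, the line difference called 0 of the 9 genes (limma adjusted p 0.335 to 0.550, with VIM at -3.83), while limma called 2 of all 12717 genes and 1728 had an unadjusted p under 0.05. With UM-UC-3 sh-NC added and the library labelled 5637 sh-NC left out, the 8 genes were called again, with TWIST1 in addition. In that setting limma called 2709 genes higher and 2757 lower of all 12748, so calls were common. Pooled over both lines, the 4 sh-LNMAT1 libraries were compared with the 2 sh-NC libraries with the line as a covariate. The pooled limma fit called 0 of the 9 genes and 0% of 12717, with 811 genes at an unadjusted p under 0.05. VIM had a pooled difference of -2.92 (SE 0.70, limma adjusted p 0.569) and SNAI2 of 1.91 (SE 0.43, limma adjusted p 0.569). FN1 was 3.47 and ZEB1 -2.45, also not called. The 4 comparisons behind these values share the pair of sh-NC libraries. Without the library labelled 5637 sh-NC, where the UM-UC-3 libraries alone carry the estimate, VIM was -1.31 (SE 0.27, limma adjusted p 0.680), SNAI2 1.07, FN1 0.67 and ZEB1 -0.24, and limma called 0 of the 9 and 0 of all genes, with 773 at an unadjusted p under 0.05. Without UM-UC-3 sh-NC, the 5637 libraries alone carry the estimate, with the library labelled 5637 sh-NC as the only control. There VIM was -4.53, SNAI2 2.76, FN1 6.27 and ZEB1 -4.66. The interaction of line and knockdown, which asks whether the hairpin difference itself differed between the lines, called 6 of the 9 genes, against 18.8% of all 12717. Among those called, CDH1, CDH3 and ESRP1 passed the filter only through the 5637 sh-LNMAT1 libraries, so they had to differ. SNAI2 (1.69, limma adjusted p 0.0596), CDH2 (-1.42, limma adjusted p 0.0807) and TWIST1 (1.10, limma adjusted p 0.213) were not called. This interaction uses the library labelled 5637 sh-NC as the only control of its line, and the spread it uses comes from the hairpins alone.

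Genes of related lists were read in the same fit, beside 20.1% higher and 18.4% lower over all genes. A gene kept only through the line where it is high had to differ, so such genes are given as levels, and only those that reached 1 FPKM in the mean of both pairs of libraries are counted. Of 11 epithelial transcription and splicing regulators, 9 reached 1 FPKM in 5637 alone, among them EHF, at means of 0.0276 FPKM for the UM-UC-3 pair and 36.1 FPKM for the 5637 pair, and GRHL2, an activator of epithelial junction genes, at 0.00614 and 15.4 FPKM. The other 2 were called in opposite directions, KLF5 higher in 5637 by 5.06 and KLF4 lower, at -0.89. Of 15 epithelial surface and polarity genes, 13 reached 1 FPKM in 5637 alone, such as MAL2, at 0.0174 and 94.0 FPKM, and ST14, at 0.00875 and 52.8 FPKM. The other 2, CD24 (2.98) and PKP3 (2.74), were higher in 5637, and they are named because no other genes of this list could go either way. JUP, which encodes plakoglobin of desmosomes, also reached 1 FPKM in 5637 alone, at 0.123 and 84.6 FPKM. Of the other 4 catenins and cadherin partners, CTNNA1 (-0.98) and VCL (-0.83) were lower and 2 were not called. Among other classical cadherins, CDH24 was higher (1.66), CDH4 was not called, and CDH13 stood at 0.0101 and 5.57 FPKM.

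Of 15 mesenchymal matrix and surface genes, 11 reached 1 FPKM in both lines, and 2 of these were higher in 5637, 3 lower and the rest not called, which is close to the shares over all genes. NT5E (-2.67) was among the lower genes, and the matrix protease gene MMP2 (1.70) was higher. SPARC, which reached 1 FPKM in UM-UC-3 alone, stood at 34.1 FPKM there and 0.0678 FPKM in 5637, and LOX, a collagen crosslinking enzyme, at 0.241 and 5.62 FPKM. Of 8 integrin genes whose products bind fibronectin, 5 reached 1 FPKM in both lines, and 3 of these were lower in 5637, among them ITGA5 (-1.77) and ITGB1 (-1.57), and 0 higher. ITGB6 stood at 0.0117 FPKM in UM-UC-3 and 11.4 FPKM in 5637, ITGB8 at 0.00494 and 5.38 FPKM, and ITGB3 at 4.26 and 0.235 FPKM. Of 12 other EMT transcription factors, 3 were tested, and FOXC1 and TCF3, which reached 1 FPKM in both lines, were not called. In UM-UC-3, SNAI1 was 3.14 FPKM with sh-NC, 4.58 with sh-LNMAT1#1 and 2.69 with sh-LNMAT1#2. Under the 5637 labels, the sh-NC library had 4.71 FPKM and those with sh-LNMAT1#1 and #2 had 0.713 and 0.827. It thus lay on the side of ZEB1 and not of its paralogue SNAI2. The 3 other cytoplasmic intermediate filament genes tested, INA, NES and SYNM, reached 1 FPKM in 5637 alone, at means of 8.49, 2.31 and 1.86 FPKM there. In UM-UC-3, TCF3, among 6 genes of its list that were kept, was the only gene of these 8 lists at least 2-fold higher with both hairpins. It was 3.43 FPKM with sh-NC against 7.40 and 8.35. None was lower, and over all genes 1.08% were higher and 0.358% lower. For TCF3 the UM-UC-3 control was the lowest of the 6 libraries, and the library labelled 5637 sh-NC had 6.55 FPKM.

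**Figure D5:**
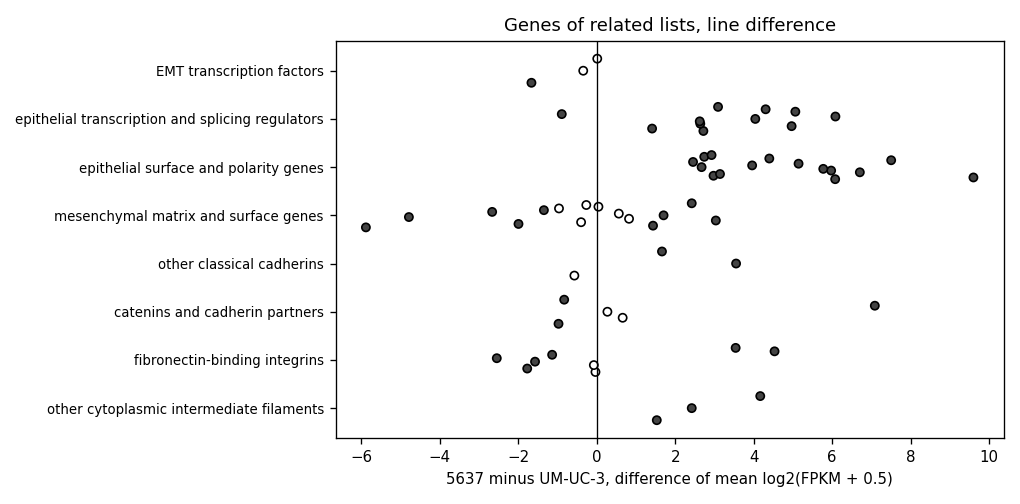
Line difference, 5637 minus UM-UC-3 in log2(FPKM + 0.5), of each tested gene of the 8 related lists, with filled points at a limma adjusted p under 0.05. The epithelial lists lie to the right apart from KLF4 (-0.89), and the mesenchymal and integrin lists lie on both sides of 0, with genes included that reached 1 FPKM in 1 line alone.

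Over the 6 libraries, the genes nearest in profile to VIM, CDH1 and ZEB1 were ranked among 11572 genes by the root mean square (RMS) difference of mean-centred log2(FPKM + 0.5). Nearest to VIM was ADAM12, a metalloprotease gene, with an RMS difference of 0.27. In UM-UC-3, ADAM12 was 25.3 FPKM with sh-NC, 12.1 with sh-LNMAT1#1 and 21.9 with sh-LNMAT1#2. Under the 5637 labels, the sh-NC library had 11.1 FPKM and those with sh-LNMAT1#1 and #2 had 0.0366 and 0.0295. ZNF385D (0.40) and the mitochondrial gene MT-ND2 (0.52) followed. Among the nearest to CDH1 were SOX2 (0.08) and GRHL2 (0.10), and nearest to ZEB1 were SMOC1 (0.18), NTSR1 (0.19) and ETV5 (0.23).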

How the data were processed

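The authors deposited FPKM for 50869 genes with GRCh38 positions, of which 1 had no values and was dropped. Per the submitters' processing notes, HISAT2 and hg38 were used. The counting program, its strand setting and the annotation are not given in the sources used here. Libraries came from a stranded mRNA kit. Samples were grouped by their labels.

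The depth of each library came from its single-exon genes, of which at least 99.95% of values were whole multiples of 1 fragment within 0.05, and intervals and floors cover counting error only. Values were analysed as log2(FPKM + 0.5) for genes whose mean over the libraries compared reached 1 FPKM. limma 3.58.1 (R 4.3.3, lmFit and eBayes with a trend, Benjamini-Hochberg adjustment, adjusted p under 0.05) gave the line, pooled and interaction fits, and a 2-fold rule with both hairpins gave the changes in each line. The fits were tested on simulated data. Python 3.11.15 with pandas 2.3.3, numpy 2.4.6 and matplotlib 3.10.9 did the rest.

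Genes named were the 10 members, the targeted gene, GAPDH and ACTB, from each list up to 3 called genes per direction and those changed 2-fold by both hairpins in UM-UC-3, and the 3 nearest profiles of VIM, CDH1 and ZEB1, and some genes that this rule names are not reported here. Antisense, overlapping and neighbouring genes, markers and list genes present in both lines were named after values were seen. Members and lists were chosen with earlier results of these data known. Alternatives were pseudocounts of 0.1 and 1, no filter, a filter of 5 FPKM, 75th-percentile scaling, thresholds of 1.5-fold and 5-fold, single hairpins, no trend, no line covariate, a hairpin block, added sh-NC libraries and leaving out each library.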

Additional observations from a re-analysis of the deposited data

Results flagged for a closer look

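For 6 genes the knockdown difference differed between the lines by limma's interaction test (5637 minus UM-UC-3, log2 scale). It was 6.18 for CDH3 (limma adjusted p 0.00285), 5.60 for FN1 (0.00412), 5.08 for ESRP1 (0.0029) and 5.06 for CDH1 (0.00313). It was -4.42 for ZEB1 (limma adjusted p 0.00422) and -3.22 for VIM (0.00615). Both of the latter calls were lost without 5637 sh-LNMAT1#2 (limma adjusted p 0.0520 and 0.0648), and that of VIM also without 5637 sh-LNMAT1#1 (0.0682). CDH1, CDH3 and ESRP1 passed the filter of 1 FPKM only through the 5637 sh-LNMAT1 libraries. Their interaction was thus set by that filter and is no independent result. Each line had 1 control library, and the spread in this test comes from the hairpins, so the p-values hold no spread between controls. The single control of 5637 in all 6 tests is the library labelled 5637 sh-NC, whose levels of these genes were nearest to a UM-UC-3 library. Without that library the interaction cannot be estimated, and its part in these differences was not tested. VIM was lower with both hairpins in both lines under the labels, so its difference is one of size, and ZEB1 differed in UM-UC-3 by 0.02 and -0.50. No construct had enough libraries to look for outlying samples.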

How the results depend on the processing

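Among the counts of genes, 97 of the recomputed values stayed within 1.5 times and 11 moved. In UM-UC-3, 1 gene was higher with a pseudocount of 0.1 or a threshold of 1.5-fold (SNAI2) and 2 with sh-LNMAT1#1 alone (FN1 and SNAI2), against 0, and 0 were lower at 5-fold, against 1. In 5637, 1 was lower with a filter of 5 FPKM, against 2, because ZEB1 falls under that filter. Leaving out each library, the pooled fit made calls only without UM-UC-3 sh-NC, where the library labelled 5637 sh-NC is the only control. Without 1 library, a group of the line fit holds 1 library, so its calls are not counted here. The line difference then ran from -5.11 to -4.69 for VIM and 6.15 to 6.28 for CDH3. For SNAI2 it ran from 2.28 to 2.71 and for CDH2 from -1.39 to -0.88. With both sh-NC libraries under their labels, the line fit called 0 genes higher and 0 lower, and 2 of all 12717. The interaction without 1 sh-LNMAT1 library ran from 5.19 to 6.01 for FN1, -4.68 to -4.16 for ZEB1 and -3.43 to -3.01 for VIM. The calls of ZEB1 and VIM depended on single libraries, as given above. With a pseudocount of 1 the interaction called 5 higher, SNAI2 added (1.66, limma adjusted p 0.0458), beside 1273 higher of all 12717 genes. CDH2 turned sign in the pooled fit, from -0.38 to 0.34 without the library labelled 5637 sh-NC (-1.09 to 0.34 over the libraries left out), and was called in none of these. CDH2 in the line fit was not called without a filter (limma adjusted p 0.0678). The causes were not tested.

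With the hairpin number as a replicate block, the line fit called 6 genes higher, with TWIST1 at 0.82 (limma adjusted p 0.0441), and 3 lower. Of all 12844 genes, this fit called 2721 higher and 2529 lower. Across 12844 genes the differences between hairpins had r of 0.03 between the lines. The numbers name the same constructs in both lines, and with single libraries this r cannot decide whether they pair samples. Of the values of single genes, 377 kept their call or moved less than the spread, 15 moved, 16 lost and 10 gained a call and 1 reversed. Depth limits CDH1 in UM-UC-3 and the library labelled 5637 sh-NC, ESRP1 in UM-UC-3 sh-NC, and ZEB1 in 5637 sh-LNMAT1, at about 3 fragments or fewer, and may limit ZEB2 in 5637 sh-LNMAT1.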
